A study of Mus musculus with 26 samples.

Results

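The proteasome is described here through the 50 genes, of 24682 in the count tables, whose symbols begin with Psma, Psmb, Psmc, Psmd, Psme, Psmf or Psmg followed by a number. Of these, 31 encode general subunits that every cell uses, and the others are the testis subunit Psma8, 4 inducible core subunits, 5 activators, the inhibitor Psmf1 and 7 assembly chaperones. The rule also picks up Psmc3ip, which is no subunit but a partner protein in meiotic recombination. RNA was sequenced from mouse testes, all of strain C57BL/6 and postnatal day 21 per the labels, in 3 sets. The Nkapl set has 3 wild-type and 2 Nkapl knockout (KO) libraries, the Sox30 set has 3 wild-type and 2 Sox30 KO libraries, and the TGdel set has 2 wild-type libraries and 3 from mice with both Nkapl alleles of the TGdel type, and the series title also speaks of an NKAPL frameshift without saying which allele carries it. From testes of wild-type and Nkapl KO mice, 2 libraries each were made of pachytene spermatocytes (PS), which are in meiotic prophase, and of round spermatids (RS), the haploid cells that follow. The labels give no strain or age field for the sorted cells, although their titles name day 21, and they do not say how cells were sorted, whether animals were pooled or whether wild-type mice were littermates.

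The proteasome degrades proteins that carry ubiquitin chains. Its core particle stacks rings of alpha subunits (Psma) and beta subunits (Psmb), the beta subunits hold the cutting sites, and a cap of ATPases (Psmc) and non-ATPase subunits (Psmd) binds, strips and unfolds the substrate. In germ cells Psma8 can take the place of Psma7 in the alpha ring, and the activator Psme4, an alternative cap, is known for its role in the removal of histones when spermatids condense.

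Libraries were grouped by the name in the column heading of each table, and identical columns were counted once, so the 26 files hold 23 libraries. In 15 of the 18 testis files the heading names another sample than the record, and 4 testis libraries would change group if the record were followed. Total counts ranged from 16469667 to 40010106. Nkapl measured 74.9 to 79.9 CPM (reads per gene scaled to equal library totals) in wild-type testes of its set, 60.8 and 57.8 in the KO testes, 88.4 and 90.3 in wild-type spermatids and 24.6 and 23.6 in KO spermatids. In spermatocytes it went against the labels, with 90.1 and 86.0 in wild type and 127 and 125 in the libraries labelled KO, and Sox30 kept 44.7 and 61.5 in Sox30 KO testes against 72.4 to 86.2 in their wild type. What either knockout allele deletes is not described in the labels. TGdel replicate 1 stood apart in the ribosomal precursor Rn45s, at 4929 CPM against 611 to 699 in the other 4 libraries of its set. In the Nkapl set Rn45s differed by genotype, with 40142 to 40622 CPM in wild-type testes and 54155 and 51251 in KO testes. The part of Rn45s in the results was not tested. Nothing in the labels says that the libraries came from separate animals, so p-values measure the spread between libraries.

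Psma8 was among the most abundant proteasome transcripts of the testis. Per kilobase of the principal transcript, wild-type libraries of the Nkapl set averaged 103 ± 6.35 CPM for Psma8 (SD, n = 3) and 43.6 ± 1.53 for Psma7, ranks 4 and 24 of 50. Psma7 lies on chromosome 2 at 180036374 to 180042433 and Psme4 on chromosome 11 at 30771726 to 30880361 of GRCm38. The base ATPase Psmc3 stood first at 241 CPM per kilobase, followed by the base scaffold subunit Psmd2 at 176 and the lid subunit Psmd8 at 136. At the other end, the inducible subunits Psmb8 and Psmb9, which replace Psmb5 and Psmb6 in immune cells, had 0.488 and 0.474, and the thymus subunit Psmb11 had 0.0526. The median of the general alpha subunits Psma1 to Psma6 was 37.3 to 39.2 CPM per kilobase in these 3 libraries, below Psma8 in each.

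**Figure D1:**
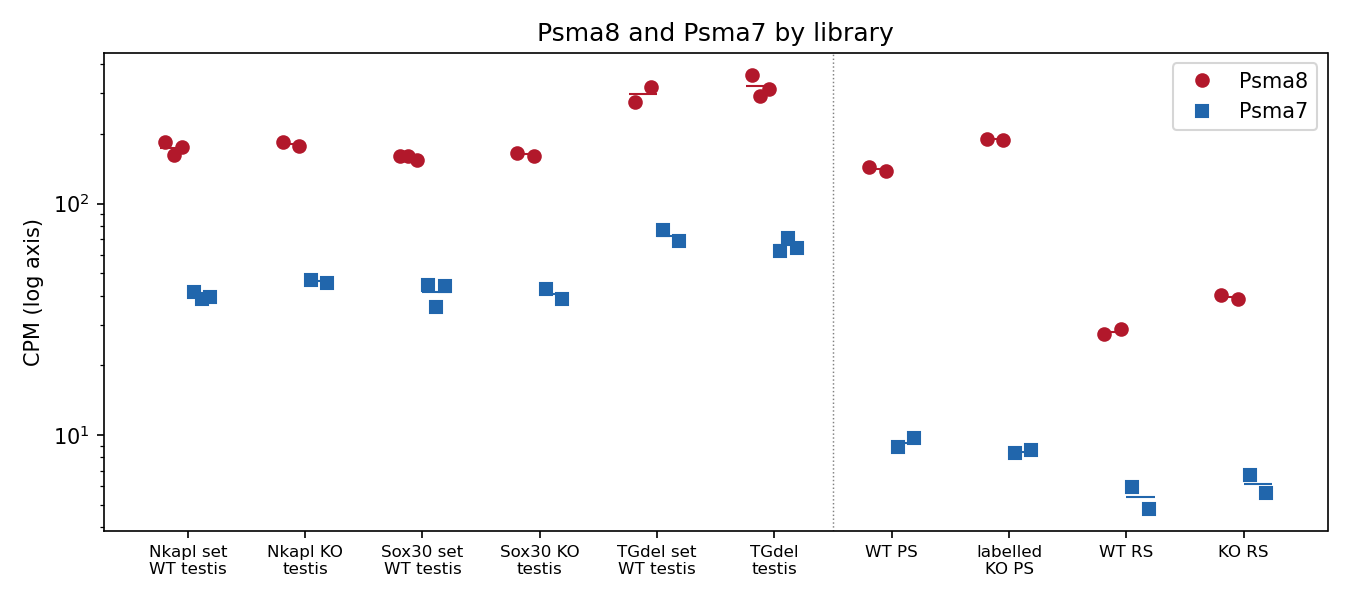
CPM of Psma8 (circles) and Psma7 (squares) in each of 23 libraries on a log axis, with short lines at group means; testis sets were scaled separately from the sorted cells. Psma8 lies above Psma7 in every library, and falls from 139 to 191 CPM in spermatocytes to 27.2 to 40.1 CPM in spermatids.

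Psma8 differed more between the sorted cell types than between genotypes. In CPM, wild-type spermatocytes had 144 and 139 and wild-type spermatids had 27.2 and 28.7. The spermatocytes labelled KO had 191 and 189, and KO spermatids had 40.1 and 38.8. All 4 spermatid libraries lay below all 4 spermatocyte libraries, a log2 difference of -2.30 ± 0.04 (± SE, as for every log2 fold change here; adjusted p = 1.33e-27, edgeR quasi-likelihood F test). The difference was -2.34 ± 0.06 in wild type alone and -2.27 ± 0.06 in KO alone.

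Psma7 was scarce in both sorted cell types. It had 8.86 and 9.70 CPM in wild-type spermatocytes, 8.34 and 8.63 in those labelled KO, 5.95 and 4.80 in wild-type spermatids and 6.70 and 5.62 in KO spermatids. Spermatids were lower here too, by a smaller step (log2 fold change -0.62 ± 0.10, adjusted p = 8.46e-07). Per kilobase, Psma8 made up 88.6% to 92.5% of Psma8 plus Psma7 in the 4 spermatocyte libraries, 71.2% to 78.8% in the 4 spermatid libraries and 65.3% to 75.8% in the 15 testis libraries. With the union of all exons as the length, the shares were 94.6% to 96.6%, 84.9% to 89.5% and 81.1% to 87.7%. The log2 ratio of Psma8 to Psma7 was 2.53 ± 0.248 in spermatids and 4.20 ± 0.328 in spermatocytes (SD, n = 4 each), a difference of -1.67 (two-sided exact permutation test, p = 0.0286, the smallest that 4 against 4 allow). This test pooled wild-type and labelled-KO libraries, so its SD includes the difference between genotypes. It was not among the planned tests.

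Within the testis sets no genotype difference in Psma8 passed the test. The Nkapl set had 184, 163 and 176 CPM in wild type and 184 and 178 in KO, which overlap (log2 fold change 0.050 ± 0.046, edgeR adjusted p = 0.409). The Sox30 set had 161, 161 and 154 against 166 and 160.1 (0.041 ± 0.083), and the TGdel set 274 and 319 against 292, 313 and 361 (0.12 ± 0.11), neither called. In the sorted cells both labelled-KO groups lay above their wild type, by 0.42 ± 0.05 in spermatocytes (adjusted p = 3.98e-08) and by 0.50 ± 0.07 in spermatids (adjusted p = 5.82e-07). The difference of these effects was not called (0.072 ± 0.088, adjusted p = 0.592). That difference rests on the spermatocyte labels, which the Nkapl level goes against. With these labels exchanged it was 0.92 ± 0.09 and called (adjusted p = 1.76e-10, edgeR).

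Taken as a ratio to Psma7, which needs no scaling between libraries, no genotype comparison could pass in these group sizes. The log2 ratio in Nkapl KO testes was 1.97 and 1.97, below the 2.07 to 2.16 of their 3 wild-type libraries, and Psma7 itself rose there. The exact two-sided permutation p was 0.1, the smallest possible with 2 against 3. It was higher by 0.0584 in Sox30 KO (exact p = 0.8) and by 0.262 in TGdel testes (exact p = 0.4). In spermatocytes labelled KO it was higher by 0.552, and in KO spermatids by 0.299, each without overlap and each at the smallest exact permutation p of 0.333 that 2 against 2 allow. Single libraries moved some of these: the spermatid difference was 0.106 without wild-type replicate 1, 0.197 without KO replicate 2 and 0.492 without wild-type replicate 2, and the TGdel difference was 0.0771 without wild-type replicate 1, 0.138 without TGdel replicate 3 and 0.448 without wild-type replicate 2. The small Sox30 difference was -0.0115 without wild-type replicate 3 and 0.170 without wild-type replicate 2. Over these 5 comparisons the Benjamini-Hochberg values were 0.5 to 0.8.

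Round spermatids had less RNA of most proteasome genes than spermatocytes, relative to all genes, and a small group had more. Of the 50 members, 47 passed the filter on low counts in the sorted cells (Psmb8, Psmb9 and Psmb11 did not), and 30 were lower and 12 higher in spermatids at adjusted p under 0.05. Over all genes tested, 41.6% were lower and 41.8% higher. The median log2 difference was -0.34 over the 47 members and -0.0049 over all genes. In wild-type libraries alone 24 were lower and 14 higher: Psma4, Psma5, Psmb5, Psmc6, Psme3, Psmg4 and Psmc3ip were not called lower there, while Psmd7 was, and Psmd2 and Psmg2 were called higher. In KO alone 31 were lower and 9 higher. The shares of all genes within 1 genotype are not given here. Of the 31 general subunits, 19 were lower and 8 higher over both genotypes. By role, 6 of 7 core alpha, 5 of 7 core beta, 3 of 6 ATPase, 5 of 11 other cap subunits, 4 of 5 activators and 4 of 7 chaperones were lower. Beside these values, the 8 round spermatid markers summed to 1572 to 6674 CPM in spermatids and 563 to 1965 in spermatocytes, and all 8 Sertoli markers were lower in spermatids (30.8 to 39.3 CPM in sum, against 167 to 255). The macrophage list, by contrast, summed to 15.1 to 37.3 CPM in spermatids and 3.87 to 6.67 in spermatocytes. Of 8 pachytene spermatocyte markers, 5 were lower and 3 higher in spermatids. Their sums overlap in wild type, at 5728 to 5981 CPM in spermatocytes and 5510 to 5948 in spermatids. In the libraries labelled KO they were 6655 to 6867 and 5967 to 5988. The part of these cells in the result was not tested.

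The members that rose from spermatocyte to spermatid belong to different parts of the particle. Psmd10, an assembly chaperone of the ATPase ring also called gankyrin, had 9.14 and 11.6 CPM in wild-type spermatocytes and 27.4 and 28.2 in wild-type spermatids (log2 difference over both genotypes 1.46 ± 0.07). Psma6, an alpha subunit, had 185 and 201 CPM in wild-type spermatocytes and 454 and 396 in wild-type spermatids (1.04 ± 0.04). Psmf1, which binds the core particle and inhibits it in vitro, had 164 and 178 against 384 and 376 (0.89 ± 0.04).

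Psme4 stood out by its level as well as its rise. Wild-type spermatocytes had 792 and 606 CPM and wild-type spermatids 1179 and 1226 (0.72 ± 0.05, adjusted p = 9.10e-15). The ATPase Psmc2 had 336 and 339.9 against 556 and 532 (0.60 ± 0.03). For each of Psmd10, Psma6, Psmf1, Psme4 and Psmc2 the 4 spermatid libraries lay above the 4 spermatocyte libraries, and each difference had an adjusted p of at most 9.10e-15. The other 7 that rose, Psmc3, Psmd11, Psmb6, Psmd8, Psmd9, Psmd12 and Psmb7, did so by 0.12 to 0.20.

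The largest falls were in Psmg3, Psma8, Psme2b and Psme2. Psmg3, a chaperone of the alpha ring, had 3.03 and 4.10 CPM in wild-type spermatocytes and 0.467 and 0.867 in wild-type spermatids (log2 difference -2.73 ± 0.20). Psme2, a subunit of the activator induced by interferon, had 2.57 and 2.64 against 0.525 and 1.16 (-1.29 ± 0.19); Psme2b is a near copy of it, so reads of the pair are uncertain. Its partner Psme1 had 2.33 and 3.19 against 1.58 and 1.85 (-0.79 ± 0.17), and the libraries of both genotypes together overlap. The inducible subunit Psmb10, at 1.40 and 1.64 against 0.525 and 0.694 CPM, fell by 1.26 ± 0.21 on the log2 scale.

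Among the general subunits the alpha subunit Psma2 and the lid enzyme Psmd14, which removes ubiquitin from the substrate, fell most. Psmd14 had 39.2 and 36.4 CPM in wild-type spermatocytes and 15.5 and 17.5 in wild-type spermatids (-1.18 ± 0.06, adjusted p = 7.92e-18). Psma2 had 27.4 and 28.5 against 12.7 and 13.9 (-1.14 ± 0.06). Subunits of the same ring therefore moved apart: Psma6 ended at 408 CPM per kilobase and Psma2 at 4.58 in wild-type spermatids, from 185 and 9.62 in wild-type spermatocytes.

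**Figure D2:**
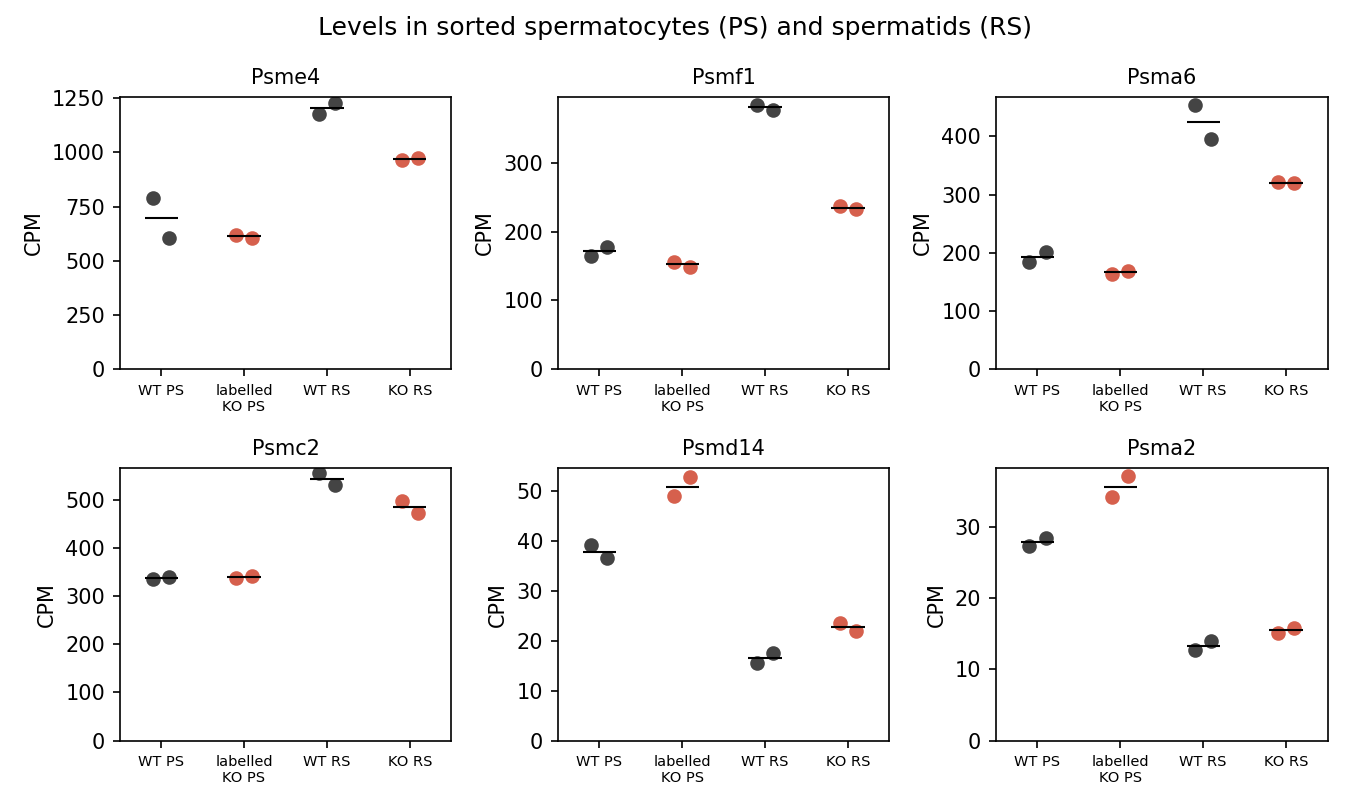
CPM of 6 proteasome genes in each sorted library (points, 2 per group; lines are means; axes start at 0), with spermatocytes (PS) left and spermatids (RS) right, wild type in grey and libraries labelled KO in red. Psme4, Psmf1, Psma6 and Psmc2 lie higher in spermatids and Psmd14 and Psma2 lower; Psmf1 reaches 384 and 376 CPM in wild-type and 238 and 232 in KO spermatids.

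The promoters of 3 abundant members that were higher in spermatids and of 2 that were lower are printed to show what stands before their start sites. They run from 150 bases before the annotated start to 12 after, on the plus strand, from RefSeq on GRCm38.p6: Psme4 at chr11:30771625-30771786, Psma6 at chr12:55384072-55384233, Psmc2 at chr5:21785125-21785286, Psma2 at chr13:14613092-14613253 and Psmd14 at chr2:61711544-61711705. Capitals mark matches, on either strand, to CCAAT, to the palindrome of nuclear respiratory factor NRF1 (the first capitals of Psma2) or to TGACNNNGC (the core of the antioxidant response element).
Psme4: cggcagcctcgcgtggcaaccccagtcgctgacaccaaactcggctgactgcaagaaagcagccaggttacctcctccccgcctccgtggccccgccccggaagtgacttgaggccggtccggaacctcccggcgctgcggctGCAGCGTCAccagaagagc
Psma6: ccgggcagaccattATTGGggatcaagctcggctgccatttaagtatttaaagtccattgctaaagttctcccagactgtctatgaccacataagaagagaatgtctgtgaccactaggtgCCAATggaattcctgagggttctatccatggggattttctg
Psmc2: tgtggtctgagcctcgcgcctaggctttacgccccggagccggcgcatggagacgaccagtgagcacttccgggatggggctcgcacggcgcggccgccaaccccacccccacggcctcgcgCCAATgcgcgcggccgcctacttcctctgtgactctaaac
Psma2: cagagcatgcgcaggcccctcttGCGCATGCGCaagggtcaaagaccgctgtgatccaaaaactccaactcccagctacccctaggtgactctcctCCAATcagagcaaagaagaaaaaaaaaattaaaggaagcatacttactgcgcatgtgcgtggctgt
Psmd14: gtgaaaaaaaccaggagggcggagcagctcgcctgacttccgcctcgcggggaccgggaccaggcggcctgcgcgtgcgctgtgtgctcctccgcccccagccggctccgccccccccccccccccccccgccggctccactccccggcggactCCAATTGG

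Across the RefSeq windows of 42 member genes (45 windows of 250 bases before to 50 after the start), each motif was counted beside all windows of that length. TGACNNNGC was in 6 of 45 windows, or 13.3%, and in 12.4% of all 32851 windows. CCAAT was in 33.3% against 37.4%, and the NRF1 palindrome in 2 windows, those of Psma2 and the chaperone gene Psmg1, or 4.44% against 0.971%. The X-box and the cAMP response element TGACGTCA were in none of the 45, against 0.451% and 1.79% of all. A match is a description of letters, not of binding.

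In whole testis the Nkapl knockout changed the level of some members by small amounts. Of 49 tested, 6 rose and 9 fell, where 17.8% of all genes tested rose and 26.1% fell, so that the share called among members, 12.2% and 18.4%, was below that of all genes. The median log2 fold change was -0.0063 over members and 0.0073 over all genes. Among the 31 general subunits 4 rose and 7 fell.

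Psme4 changed most. It measured 629, 644 and 645 CPM in wild-type testes and 443 and 401 in Nkapl KO testes, without overlap (log2 fold change -0.60 ± 0.04, adjusted p = 1.28e-09, edgeR quasi-likelihood F test). Psmc3, the most abundant ATPase, had 398, 394 and 389 against 296 and 289 (-0.43 ± 0.03), and Psmc2 had 166, 159.6 and 161 against 130.2 and 124 (-0.35 ± 0.04). The lid subunits Psmd8 and Psmd13, Psma6, Psmb6, the ATPase Psmc5 and Psmc3ip also fell, by 0.26 to 0.13 on the log2 scale. With a replicate block Psmb6, Psmc5 and Psmc3ip were not called, while Psmb5 was called lower (-0.24, adjusted p = 0.0471 in edgeR).

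The rises were small in size or in level. Psmb10, which replaces Psmb7 in the inducible core, had 3.63, 4.15 and 3.80 CPM in wild type and 4.96 and 5.93 in KO (0.50 ± 0.15, adjusted p = 0.0138). Psma7 had 41.4, 38.7 and 39.5 against 46.8 and 45.4 (0.21 ± 0.06, adjusted p = 0.00528). Psmc4, Psmc6, Psma2 and the nuclear activator Psme3 rose by 0.14 to 0.16. The rise of Psmc4 was 0.075 without KO replicate 2 (adjusted p = 0.381), and its call was also lost without wild-type replicate 3 (0.0816) and that of Psme3 without KO replicate 1 (0.116). Psmc4 and Psma2 were not called with a replicate block. The other inducible subunits were not called: Psmb8 had 1.32, 0.530 and 0.537 against 0.438 and 0.760 CPM, and Psmb9 had 0.727, 0.840 and 0.358 against 0.632 and 1.03.

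These testes also differed in cell markers. Round spermatid markers summed to 67.7 to 98.2 CPM in wild type and to 9.78 and 8.85 in KO, where Tnp2, Prm1 and Prm2 were at 0, and all 6 markers tested fell. Of 8 Sertoli markers 7 rose (1558 to 1612 CPM in sum in wild type, 1846 and 1938 in KO), 5 of 6 spermatogonial markers rose and 4 of 8 spermatocyte markers fell, while the macrophage list had 52.6 to 60.1 CPM in wild type and 50.2 to 52.8 in KO. Their part in the changes of proteasome genes was not tested, and in bulk tissue fewer cells of a type and less RNA per cell cannot be told apart. The calls depend on the grouping: when the libraries were grouped by the file record, no member passed (lowest adjusted p = 0.629, Psme4 log2 fold change -0.36). Without KO replicate 2, 2 rose and 5 fell, without wild-type replicate 3, 3 rose, and in a joint fit of all testis libraries 0 rose and 2 fell. The call of Psmb10 was lost with DESeq2 (adjusted p = 0.0701) and without wild-type replicate 3 (0.0525) or KO replicate 2, and that of Psmc3ip under every library left out but wild-type replicate 2.

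**Figure D3:**
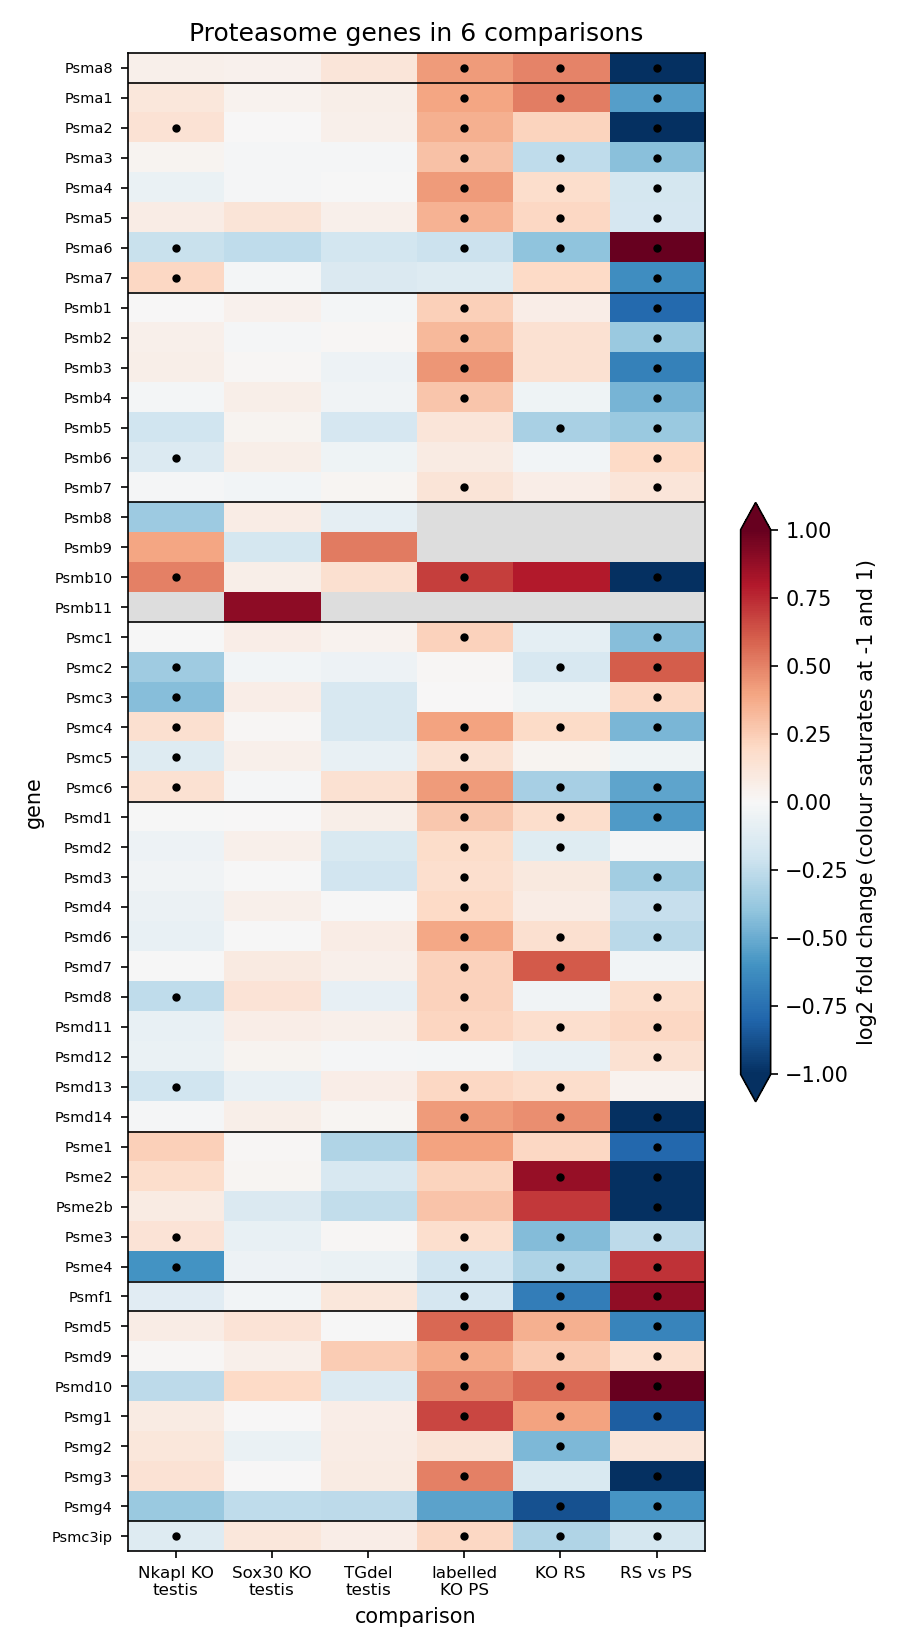
Log2 fold change of each of 50 proteasome genes (rows, grouped by role) in 6 comparisons (columns); colour saturates at -1 and 1, dots mark adjusted p under 0.05 and grey cells were not tested. The Sox30 KO and TGdel columns have no dots, the spermatocyte column has 33 rises and 3 falls, and the column of spermatids against spermatocytes has 12 rises and 30 falls.

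The changes in Nkapl KO testis were set beside the difference between cell types. Of the 12 members higher in spermatids, 6 fell (Psma6, Psmb6, Psmc2, Psmc3, Psmd8 and Psme4) and 0 rose; these are also 6 of the 9 that fell. Of the 30 lower in spermatids, 6 rose and 1, Psmc3ip, fell. The cell-type difference used here is the mean of both genotypes, so it includes Nkapl KO libraries. In wild-type libraries alone the 12 were all called higher. Psmc3ip (0.075), and Psme3 (0.038) and Psmc6 (-0.15) among those that rose, were not called lower there. The libraries of the testes and of the sorted cells are different ones. Across the 47 members Pearson's r between the log2 fold changes was -0.60 and Spearman's rho -0.71, and across 14942 genes tested in both they were -0.43 and -0.48. Of 5869 genes higher in spermatids 54.5% fell in KO testis and 7.5% rose. Of 6561 genes lower in spermatids 29.8% rose and 10.5% fell.

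**Figure D4:**
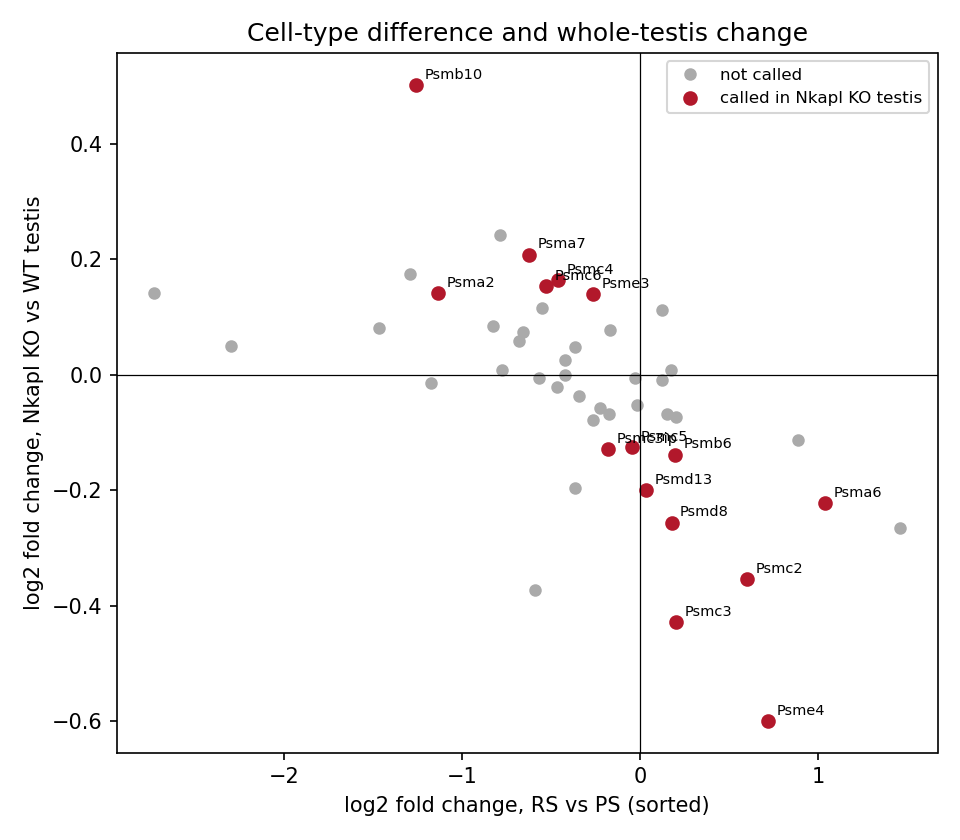
Log2 fold change in Nkapl KO against wild-type testis (y axis) plotted against that of spermatids against spermatocytes (x axis), 1 point per proteasome gene (47); red points passed the test in testis and are named. Psme4, Psmc3 and Psmc2 sit at lower right, and Psmb10 at upper left.

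No member was called in the other testis sets without a replicate block. The SE of Psme4 was 0.173 in the Sox30 set and 0.090 in the TGdel set, against 0.040 in the Nkapl set. An absent call in these sets therefore does not show that a change is absent. In Sox30 KO testes 0 of 50 tested members rose or fell at adjusted p under 0.05, where 0.505% of all genes rose and 1.92% fell; 1 member had an unadjusted p under 0.05, and DESeq2 also called 0. That member was Psma6, with 122, 127 and 106 CPM in wild type and 97.03 and 102 in KO (-0.25 ± 0.10, adjusted p = 0.540); with a replicate block it was called (-0.32, adjusted p = 0.0152 in edgeR). Psme4 had 691, 897 and 685 against 630.1 and 829.7 CPM, which overlap (-0.053 ± 0.173). Round spermatid markers summed to 60.4 to 183 CPM in wild type and 14.8 to 24.4 in KO, and 3 of 8 tested were called lower.

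In TGdel testes 0 of 49 members rose or fell, where 0.2% of all genes rose and 1.05% fell; 0 had an unadjusted p under 0.05, and DESeq2 called 0. Psme4 had 504 and 478 CPM in wild type and 445, 449.5 and 513 in TGdel, which overlap (-0.064 ± 0.090). Psmc3 had 815 and 804 against 694, 747 and 735, without overlap (-0.16 ± 0.08, adjusted p = 0.366). Whether the Psme4 effect differs between the 3 sets was not tested. Round spermatid markers summed to 64.6 to 87.0 CPM in wild type and 16.2 to 54.9 in TGdel, with 0 of 6 called.

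In sorted spermatocytes most members were higher in the libraries labelled KO. Of 47 tested, 33 rose and 3 fell, against 33.6% and 25.7% of all genes, and the median log2 fold change was 0.23 over members and 0.067 over all genes. Of 31 general subunits 24 rose and only Psma6 fell. By role, 5 of 7 core alpha, 5 of 7 core beta, 4 of 6 ATPase, 10 of 11 other cap subunits and 5 of 7 chaperones rose. Because the Nkapl level goes against these labels, the direction is that of the libraries as labelled.

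Psmb10 and 3 chaperones had the largest rises. Psmg1, which pairs with Psmg2 to build the alpha ring, had 21.9 and 21.8 CPM in wild type and 35.9 and 33.6 in the libraries labelled KO (0.67 ± 0.08, adjusted p = 1.98e-08). Psmd5, a chaperone of the base, had 13.7 and 14.7 against 21.9 and 20.5 (0.58 ± 0.09), and Psmg3 3.03 and 4.10 against 5.01 and 5.12 (0.50 ± 0.18). Psmd14 had 39.2 and 36.4 against 48.9 and 52.7 CPM (0.43 ± 0.07), and Psmb10 1.40 and 1.64 against 2.29 and 2.64 (0.69 ± 0.23, adjusted p = 0.00985). With DESeq2, Psmg3 and Psmb10 were not called (adjusted p = 0.257 and 0.204). Psme3 and Psmc3ip rose by 0.17 and 0.20, calls that DESeq2 also lost (0.131 and 0.0581), while Psma7, Psme1 and Psme2 were not called.

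The 3 that fell in spermatocytes labelled KO were Psma6, Psmf1 and Psme4. Psma6 had 185 and 201 CPM against 164 and 169 (-0.22 ± 0.06), and Psmf1 164 and 178 against 156 and 148 (-0.17 ± 0.05, a call lost without wild-type replicate 2 or labelled-KO replicate 2). Psme4 had 792 and 606 against 619 and 607, so its fall of 0.19 ± 0.07 (adjusted p = 0.0153) rests on wild-type replicate 1, and without that library the log2 fold change was 0.018; with DESeq2 the adjusted p was 0.172. Beside these values, the 8 round spermatid markers were all lower in the libraries labelled KO (563 CPM in sum against 1852 and 1965), and 6 of 8 spermatocyte markers were higher. Of other cell types, 4 of 8 Sertoli markers were lower (239 and 255 CPM in sum in wild type, 167 and 169.8 in the libraries labelled KO), 4 of 5 Leydig and 4 of 6 spermatogonial markers were higher, and of 6 macrophage genes 3 were higher and 1 lower (3.87 to 4.83 against 6.26 to 6.67). The part of these cells in the results was not tested.

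In round spermatids the Nkapl knockout moved members both ways. Of 47 tested, 16 rose and 12 fell, against 29% and 31% of all genes, with a median of 0.098 over members and 0.028 over all genes. Of the 31 general subunits 10 rose and 6 fell.

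Psmf1 had the clearest fall, from 384 and 376 CPM in wild-type spermatids to 238 and 232 in KO spermatids (-0.70 ± 0.05, adjusted p = 8.03e-13, edgeR quasi-likelihood F test). The activators Psme4 and Psme3 fell too. Psme4 went from 1179 and 1226 to 965 and 972 (-0.31 ± 0.07, adjusted p = 0.000162; 0.0698 with DESeq2), and Psme3 from 90.0 and 81.8 to 64.3 and 62.9 (-0.43 ± 0.06). Psma6 had 454 and 396 against 321 and 320.3 CPM (-0.41 ± 0.06), and the recombination partner Psmc3ip 146 and 138 against 119 and 110.2 (-0.30 ± 0.06). Psmg2 had 43.7 and 43.1 against 38.6 and 25.0 (-0.45 ± 0.11), a fall that rests on KO replicate 2, without which it was -0.18 (adjusted p = 0.119; 0.112 with DESeq2 and all libraries).

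The largest rise among abundant members was in the lid subunit Psmd7, the partner of Psmd14. It had 69.8 and 71.2 CPM in wild-type and 105 and 110.1 in KO spermatids (0.61 ± 0.06, adjusted p = 1.96e-10). Psmd14 had 15.5 and 17.5 against 23.5 and 22.0 (0.46 ± 0.09), and Psmd10 27.4 and 28.2 against 40.9 and 41.4 (0.56 ± 0.08). Psme2 rose as well at 0.525 and 1.16 against 1.72 and 1.38 CPM (0.87 ± 0.33, adjusted p = 0.0237), a call lost without wild-type replicate 1 or KO replicate 1 (0.39 and 0.68) and with DESeq2 (adjusted p = 0.0896), and Psme1 and Psmb10 were not called. The macrophage list summed to 15.1 and 15.4 CPM in wild-type and 35.3 and 37.3 in KO spermatids, and 5 of its 6 genes rose. All 5 Leydig markers tested rose (8.10 and 8.35 CPM against 20.2 and 21.5), and all 8 round spermatid markers were lower (6674 and 6466 against 1625 and 1572). Of 8 pachytene spermatocyte markers 4 rose and 0 fell (5510 to 5948 CPM in sum in wild type, 5967 to 5988 in KO). Of 6 spermatogonial markers 3 rose and 0 fell, and of 8 Sertoli markers 1 rose and 0 fell. Their part in these changes was not tested.

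The count of 16 rises changed with single libraries. It was 9 without wild-type replicate 1, 8 without wild-type replicate 2, 7 without KO replicate 1, and 10 with no filter on low counts.

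As the libraries are labelled, Psma6 fell in both sorted cell types and in Nkapl KO testis. Psmf1 and Psme4 were also called lower in both sorted types, with the dependence on single spermatocyte libraries given above. A rise in both sorted types was called for 15 members, among them Psma8, Psmd14, Psmd10, Psmg1 and Psmd7. Another 5 (Psma3, Psmc6, Psmd2, Psme3 and Psmc3ip) were called higher in spermatocytes labelled KO and lower in KO spermatids, with the calls of Psme3 and Psmc3ip in spermatocytes lost in DESeq2. Of all genes, 33.6% rose in spermatocytes labelled KO, and 29% rose and 31% fell in KO spermatids. The shares of all genes called in both cell types are not given here. With the spermatocyte labels exchanged, each direction in spermatocytes turns, so that these 5 would be lower in both cell types and the 15 would go opposite ways.

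The difference of the 2 knockout effects was tested itself, as spermatid minus spermatocyte effect. It was called in 14 of 47 members, 1 higher and 13 lower, against 9.02% and 16.4% of all genes. Psmc6, an ATPase, went from 36.8 and 35.9 to 48.6 and 48.9 CPM in spermatocytes and from 31.1 and 34.4 to 27.4 and 24.6 in spermatids (difference -0.76 ± 0.11, adjusted p = 5.08e-06). Psmf1 differed by -0.53 ± 0.07, with a fall of 0.17 in spermatocytes and of 0.70 in spermatids. Psmd7 was the 1 member with the larger rise in spermatids, 0.61 against 0.23. This contrast rests on the spermatocyte labels. With these labels exchanged, 27 members were higher and 6 lower, and 3 of the 14 (Psmd7 at 0.84, Psmf1 at -0.86 and Psme3 at -0.26) were called in the same direction, while Psmc6 had 0.092 ± 0.106 (adjusted p = 0.453, edgeR). The shares of all genes with the labels exchanged are not given here. As labelled, the 13 became 7 with DESeq2 and 7 to 18 when a library was left out, with 7 without wild-type spermatid replicate 1 and 8 without either KO spermatid library.

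**Figure D5:**
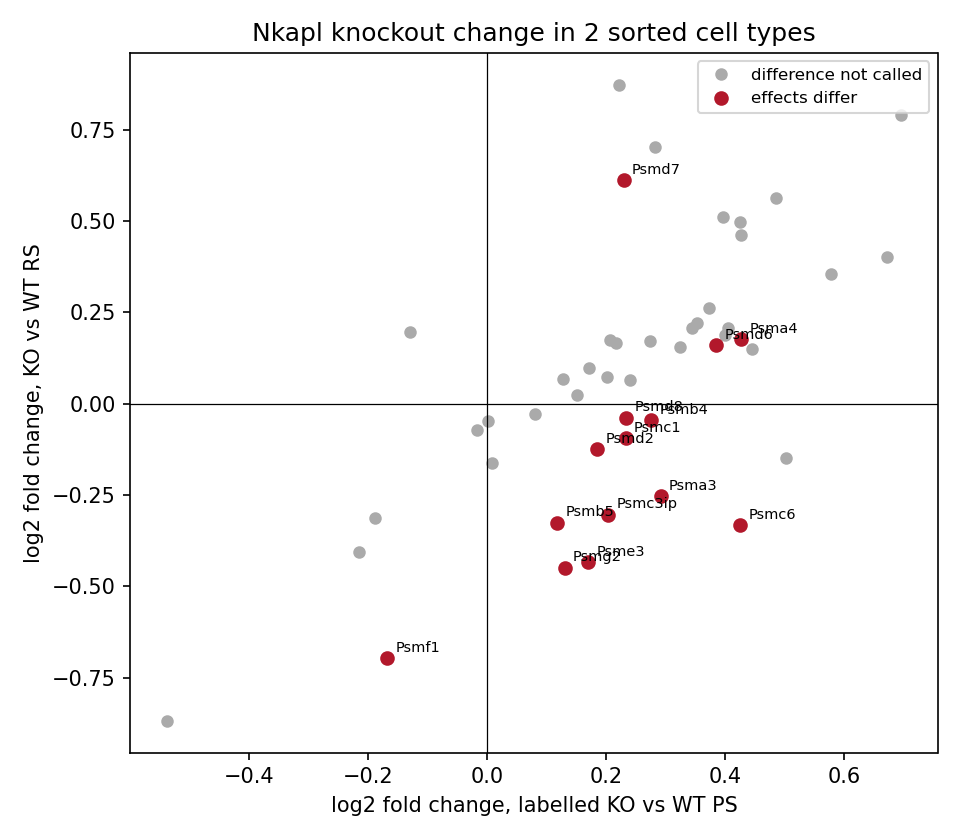
Log2 fold change between libraries labelled KO and wild type in spermatids (y axis) against spermatocytes (x axis), 1 point per proteasome gene (47); red, named points are the 14 whose effects differed at adjusted p under 0.05. All of these but Psmd7 lie toward lower values in spermatids, with Psmf1 at lower left and Psmc6, Psme3 and Psmg2 at lower right.

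Partners of the proteasome were examined as a list of 36 genes for ubiquitin supply, shuttling, assembly and control of subunit genes, of which 32 are in the tables and all were tested. In Nkapl KO testis 9 rose and 10 fell, where 17.8% and 26.1% of all genes did. In spermatocytes labelled KO 14 rose and 9 fell (33.6% and 25.7% of all genes), and in KO spermatids 11 rose and 10 fell (29% and 31%). Between the cell types 14 were higher and 14 lower in spermatids (41.8% and 41.6%).

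Of these partners, Pomp, the chaperone that closes the core particle, rose by 0.65 ± 0.07 in spermatocytes labelled KO, from 33.3 and 35.8 to 51.4 and 56.8 CPM. Zfand2a rose there by 0.81 ± 0.09. Nfe2l1, the transcription factor that drives subunit genes when the proteasome is short, rose by 0.64 ± 0.07 in KO spermatids, from 35.3 and 35.8 to 53.1 and 57.7 CPM. In KO spermatids 11 partners rose and 10 fell. Pomp rose there by 0.88 ± 0.10 and Nploc4 by 0.52 ± 0.05, while AI314180 fell by 0.74 ± 0.08 and Nfe2l2 by 0.73 ± 0.10. Ngly1, the enzyme that removes sugar chains from Nfe2l1 protein, fell by 0.53 ± 0.05 in Nkapl KO testis and was 1.03 ± 0.03 higher in spermatids than in spermatocytes.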

How the data were processed

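The deposited files hold raw counts of reads per gene symbol, whole numbers that the authors did not scale. Per the labels' protocols, RNA was taken up in Trizol and made into strand-specific total RNA libraries. The submitters' processing notes list mm10, HTSeq, HISAT2 (version 2.1.0) and DESeq2 with no role for any; the annotation and the strand setting were not stated, and so genes that overlap and near copies are uncertain. HTSeq's summary lines were left out. In the sorted files they made up 18.8% to 20.0% of counts in wild type and 23.2% to 24.6% in libraries labelled KO. The part of this difference in the results was not tested. Identical files were counted once. All replicate pairs differed beyond counting noise.

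Each testis set, and the 8 sorted libraries together, were fitted in edgeR 4.0.16 (filterByExpr, TMM, quasi-likelihood F test, Benjamini-Hochberg over all genes tested, threshold 0.05); the SE is the log2 fold change over the square root of F. CPM uses the TMM factors. These were 1.12 and 1.12 in wild-type spermatocytes and 1.05 and 1.05 in those labelled KO. In spermatids they were 0.885 and 0.892 in wild type and 0.960 and 0.961 in KO. Ratios of Psma8 to Psma7 used a prior count of 0.5. Lengths and positions come from GENCODE M21 (principal transcript) and promoters from RefSeq. DESeq2 1.42.0, no filter, other groupings, a replicate block and each library left out were alternatives; Psma8 shares by exon union, the contrasts within 1 genotype and the exchange of spermatocyte labels were added after the data were seen. The fit was tested on simulated data. Named genes are a fixed list of 12 members and, per comparison, up to 3 largest rises and 3 largest falls among called members without overlap between groups and with mean log2 CPM of at least 1, and up to 4 called partners by p (1 partner gene, and the counts of partners in Sox30 KO testes, are not reported here); other genes were chosen after their values were seen. Members and lists were chosen with earlier results of these data known.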

Additional observations from a re-analysis of the deposited data

Results flagged for a closer look

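The difference between the effect in spermatids and the effect in spermatocytes passed the test for 14 members, and each is given as spermatid minus spermatocyte effect on the log2 scale. The inhibitor Psmf1 had -0.53, the activator Psme3 -0.60 and the recombination partner Psmc3ip -0.51. Among the core subunits Psma3 had -0.54, Psma4 -0.25, Psmb4 -0.32 and Psmb5 -0.44. Among the ATPases Psmc6 had -0.76 and Psmc1 -0.33. Among the other cap subunits Psmd2 had -0.31, Psmd8 -0.27, Psmd6 -0.22 and Psmd7 0.38. The chaperone Psmg2 had -0.58, with KO spermatid libraries at 38.6 and 25.0 CPM. The Nkapl level goes against the spermatocyte labels, and with these labels exchanged 3 of the 14 (Psmf1, Psme3 and Psmd7) were called in the same direction.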

How the results depend on the processing

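Of the counts of called members, 159 were within 1.5 times the reported count under the alternatives and 19 were not. A reported count of 0 that stayed 0 is among the 159, and the Sox30 and TGdel sets had only such reported counts. In Nkapl KO testis (6 rose, 9 fell), grouping by file record gave 0 and 0, a joint fit of all testis libraries 0 and 2, and the libraries on which heading and record agree 3 rises. Leaving out 1 library gave 2 to 8 rises and 5 to 10 falls there, 7 to 17 rises in KO spermatids (10 with no filter) and 7 to 18 lower differences between effects (7 with DESeq2). With the spermatocyte labels exchanged, these differences were 27 higher and 6 lower, and that of Psmd2 turned to 0.060. The ranges without 1 library were 27 to 35 rises in spermatocytes labelled KO and 10 to 14 higher in spermatids. Psme4 in spermatocytes ranged from -0.37 to 0.018 when 1 library was left out, reversing without wild-type replicate 1, and the ratio of Psma8 to Psma7 in the Sox30 set ranged from -0.011 to 0.17, reversing without wild-type replicate 3. With wild-type libraries only, 7 members were no longer called lower in spermatids, and of these Psme3 and Psmc3ip turned sign (0.038 and 0.075). Named members kept direction and call in 531 instances and lost the call in 68. The cause was not tested.

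Correlations of same-numbered deviations were 0.05 and 0.04 in the Nkapl set and 0.34 in 1 Sox30 pair. With 2 libraries in a group the deviations mirror each other. These values therefore cannot decide whether replicate numbers pair the samples. With a replicate block, Nkapl KO testis had 4 rises and 7 falls and Sox30 KO testis 1 fall (Psma6, -0.32, adjusted p = 0.0152 in edgeR); all other counts were equal. Depth limits the low members: Psmb8 and Psmb9 had 0 to 8 reads in each sorted library and were not tested there.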
